A study of Bos taurus with 81 samples.

Results

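The regions described here are the stretches of the cattle autosomes that carried trimethylated lysine 27 of histone H3 (H3K27me3) in the oocyte and were not marked in any control embryo group up to the blastocyst. Chromosomes 1 to 29 were divided into 497623 bins of 5 kb, and a bin was called marked in a peak list where peaks covered at least 50% of it. Bins were thus selected on H3K27me3 alone: a bin was included when it was marked in both oocyte lists and in none of the 14 lists of the later control groups. This gave 7611 oocyte-only bins, which are 1.53% of the autosomal bins, 20.2% of the 37724 bins marked in both oocyte lists, and 38.1 Mb of sequence.

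The groups were germinal vesicle oocytes (GV), in vitro produced embryos with 2 cells at 32 h after insemination (2C), 4 cells at 44 h (4C) and 8 cells at 56 h (8C), morulae at 122 h (MO) and blastocysts at 172 h (BL). The inner cell mass (ICM) was isolated from blastocysts by immunosurgery, in which an antibody against bovine serum proteins and complement lyse the outer cells, and the trophectoderm (TE) was cut off with a micro scalpel. A further group of 8-cell embryos at 56 h had been grown with 50 µg/ml of α-amanitin, an inhibitor of RNA polymerase II (8A). No genotype or strain is named in the labels. All oocytes came from slaughterhouse ovaries, from follicles of 2 to 10 mm, and were matured and fertilized in vitro for the embryo groups. About 500 oocytes or 1000 to 1500 blastomeres went into a library, so each library is a pool, and nothing states that the replicates came from separate collections. The p-values from permuting libraries therefore rest on the spread between these libraries, which may be technical. For GV against later libraries, that spread includes the differences among the later groups. The p-values from flipping signs take the means of the 8 control groups as units. They say only whether a difference kept its sign and a similar size over the groups. Histone marks were measured by CUT&Tag, in which an antibody directs a transposase to a mark, with 2 libraries per mark and group. Open chromatin was measured by ATAC-seq with 3 libraries each in BL, ICM and TE.

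H3K27me3 is deposited by Polycomb repressive complex 2 and is known for keeping developmental genes and other regions silent. In mammalian oocytes it also lies in broad domains away from promoters, and in the mouse some of this maternal H3K27me3 is passed to the embryo and silences the maternal copy of a few genes. H3K4me3 is typical of active promoters, and in oocytes it also forms broad domains of low level. H3K27ac marks active promoters and enhancers and sits on the same lysine as H3K27me3, so that one histone tail cannot carry both. H3K9me3 marks heterochromatin and silenced repeats. No annotation of the genome build of the files was used, so no gene is named at any bin and no stage could be checked against marker genes.

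A list held 12477 to 29713 autosomal peaks for H3K27me3, 21874 to 178845 for H3K4me3, 58732 to 158491 for H3K27ac, 7654 to 18799 for H3K9me3 and 97691 to 150417 for ATAC. No 2 lists were identical. Sequencing depth is unknown, and the length covered by the lists of one mark varied with the group, from 37.7 to 176 Mb for H3K4me3. Coverage of the oocyte-only bins is therefore set beside the coverage of all autosomal bins in the same list. The log2 of that ratio is called enrichment, and 0 means that the bins were covered like the autosomes as a whole.

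The values that chose the bins are given first, as a description. H3K27me3 peaks covered 87.6% and 83.4% of the length of the oocyte-only bins in the 2 GV lists. In the lists of the later control groups this coverage was 0.162% to 2.07%, lowest in 8C and highest in 2C. The other 30113 GV-marked bins, which were marked in at least 1 later list, had 92.4% and 89.5% covered in GV. No later H3K27me3 peak touched 5743 of the oocyte-only bins (75.5%), and later peaks covered part of the other 1868, below the threshold. At the edge of the rule, 662 oocyte-only bins had a highest later coverage of 40% to under 50%, and 718 GV-marked bins were left out at 50% to under 60%. The lower of the 2 GV coverages was 50% to under 60% in 1027 oocyte-only bins, and 1798 bins without a later mark were left out at 40% to under 50%.

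The GV peaks over the oocyte-only bins were narrower than those over the other GV-marked bins. Their median width was 10.8 kb in replicate 1 and 8.8 kb in replicate 2, against 16.6 kb and 13.6 kb. Their median score per 200 bp of peak, a whole number deposited with each peak, was 5.31 and 5.00 against 7.68 and 6.97. In the 1941 bins marked in all 16 lists of the rule, named kept bins here, that score was 11.4 and 11.2. Both GV lists covered 28.7% of the oocyte-only bins in full, against 51.3% of the other GV-marked bins. The oocyte-only bins thus lay under GV peaks that were narrower and had a lower score per 200 bp, whose meaning was not established. The number of such bins also depended on having both GV lists, since 13786 bins met the rule without GV replicate 1 and 12443 without GV replicate 2.

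**Figure D1:**
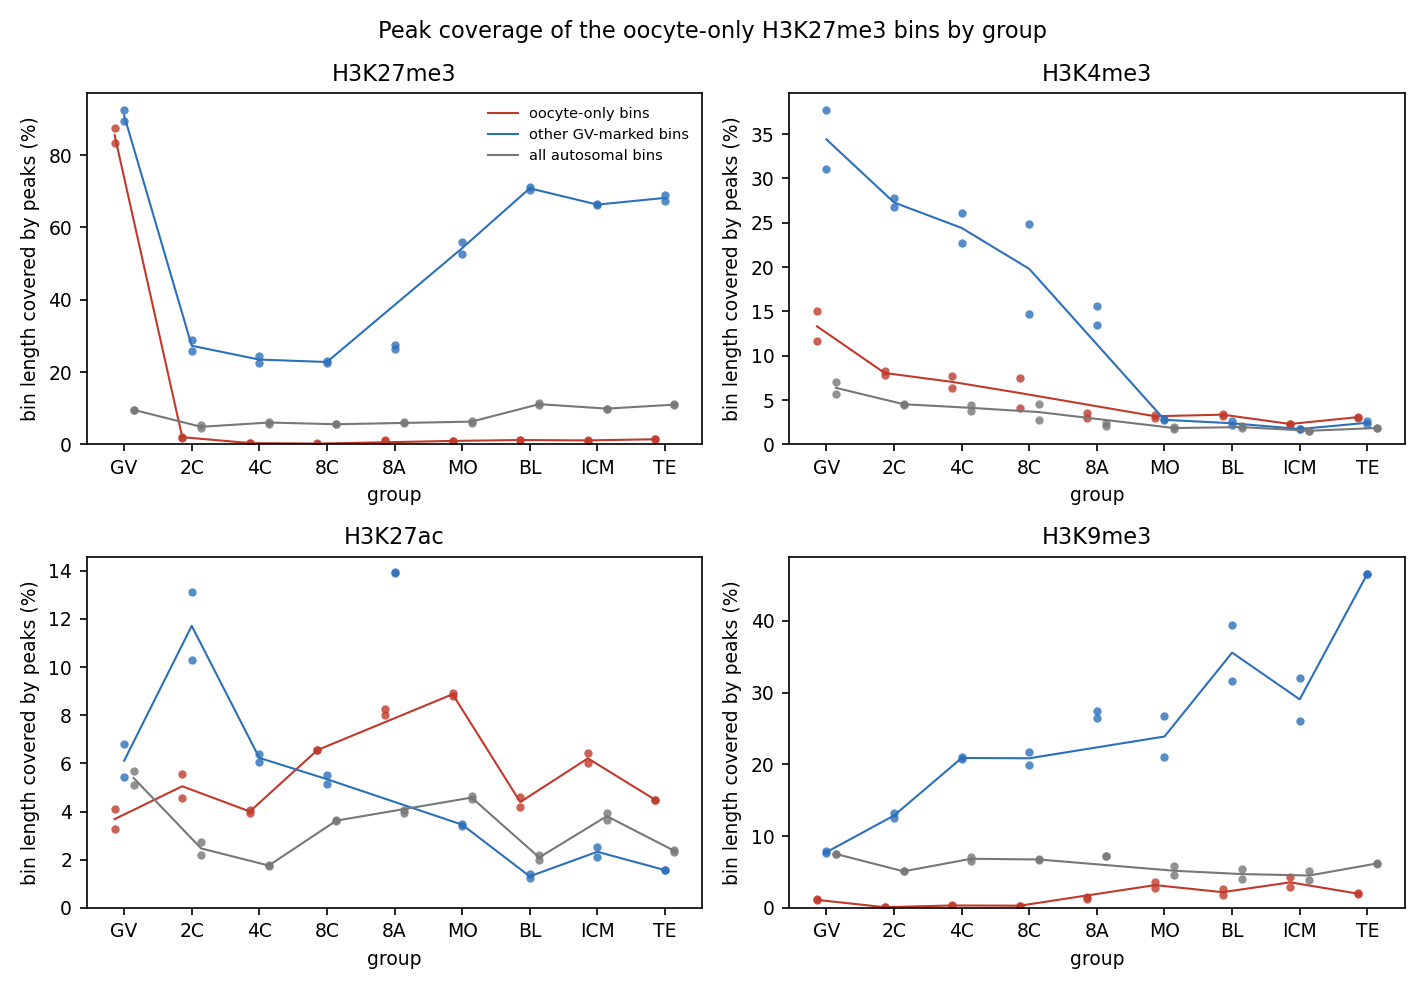
Share of bin length covered by peaks (y axis, %) in each group (x axis) for the 7611 oocyte-only bins, the 30113 other GV-marked bins and all 497623 autosomal bins. Each point is a library, lines join the means of the control groups, and the 8A points stand apart from the lines. In the H3K27ac panel the oocyte-only bins lie below the autosomal level in GV and above it in every later group, and in the H3K9me3 panel they lie below it throughout.

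Most oocyte-only bins lay in short stretches. They formed 5110 runs of neighbouring bins, of which 3485 were single bins, holding 45.8% of all oocyte-only bins. Runs of 4 bins or more numbered 186 and held 924 bins, and the 4 longest runs spanned 50 kb. Of the 14078 stretches of neighbouring GV-marked bins, 3233 consisted of oocyte-only bins alone and held 4896 of them (64.3%). The other 2715 lay in stretches that also held other GV-marked bins, and 1519 of these (55.9%) were at an edge. The median distance from an oocyte-only bin to the nearest bin marked in a later H3K27me3 list was 15 kb, against 50 kb for all autosomal bins without a later mark. Only 601 oocyte-only bins (7.90%) were over 100 kb away, against 31.4% of the unmarked bins.

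The chromosome ends held few oocyte-only bins for the amount of GV H3K27me3 there. The last 5 Mb of the chromosomes, by the numbering of the build, contained 26.3% of the other GV-marked bins and 5.97% of the oocyte-only bins, close to the 5.83% of all bins that lie there. Of the GV-marked bins in the last 5 Mb, 5.43% were oocyte-only, against 25.0% between the chromosome ends and 17.7% in the first 5 Mb. By chromosome, the oocyte-only share of all bins was highest on chromosomes 14 (2.86%), 23 (2.61%) and 13 (2.44%) and lowest on 22 (0.625%), 26 (0.664%) and 4 (0.859%). Relative to the GV-marked bins it ranged from 7.01% on chromosome 26 to 31.8% on chromosome 10. These are descriptions, because the same lists chose the bins.

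**Figure D2:**
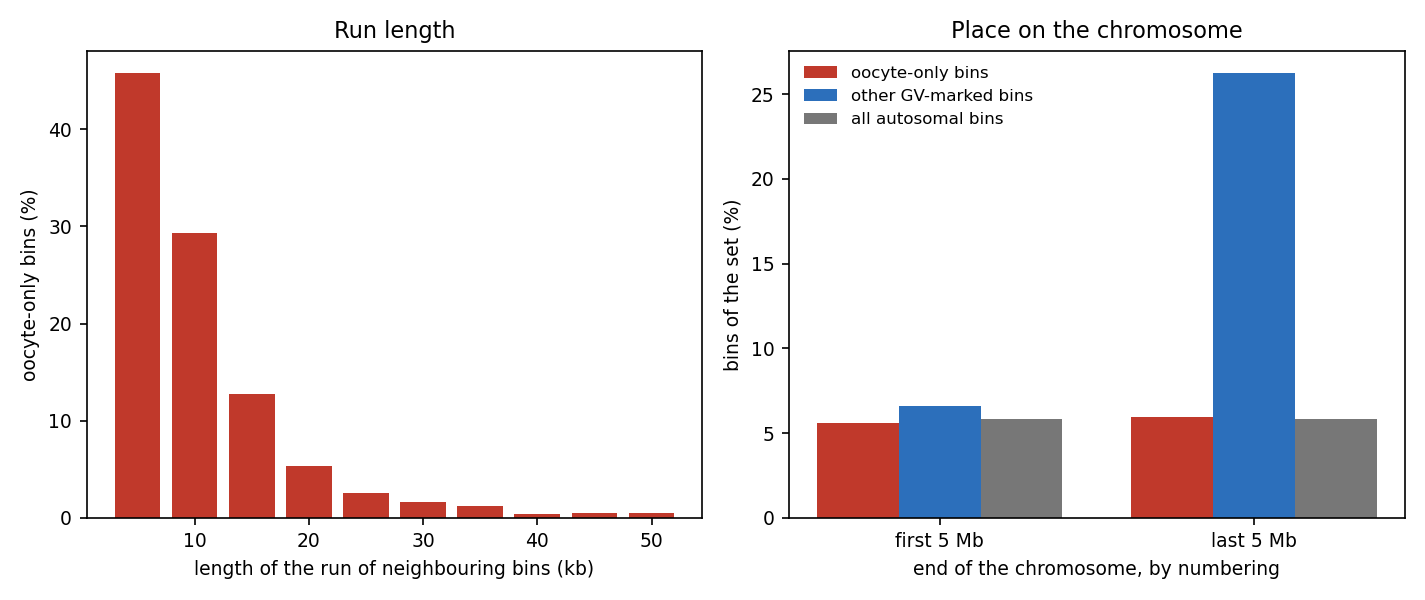
Left, the share of oocyte-only bins (y axis, %) by the length of the run they belong to (x axis, kb). Right, the share of each set of bins (y axis, %) in the first and last 5 Mb of the chromosomes (x axis), where the other GV-marked bins reach 26.3% in the last 5 Mb and the oocyte-only bins 5.97%.

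The next question was which of the other marks the oocyte-only bins carried while H3K27me3 was present and after it was gone. H3K4me3, H3K27ac, H3K9me3 and ATAC lists took no part in choosing the bins. Marked in a group means here at least 50% covered in every library of that group. In GV, 7250 of the 7611 bins (95.3%) were marked by none of the 3 other marks, against 89.3% of all autosomal bins. Over GV and all later control groups, 6353 (83.5%) were never marked, against 79.4% of all autosomal bins and 35.2% of the other GV-marked bins. The oocyte-only bins as a whole were thus mostly without wide peaks of these marks, and the results below rest on narrower peaks and on a minority of bins.

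H3K4me3 covered 11.6% and 15% of the oocyte-only bins in the 2 GV libraries, about double the autosomal level of 5.67% and 7.08%. Coverage was 8.25% and 7.85% in 2C, 6.35% and 7.73% in 4C, and 4.10% and 7.48% in 8C. It was 3.03% and 3.31% in MO, 3.24% and 3.46% in BL, 2.27% and 2.33% in ICM, and 3.14% and 3.00% in TE. Each GV library lay above every later one, and the pair of 8C libraries differed more than any other pair after GV. Because whole lists also became shorter, the test used enrichment. It was 1.06 ± 0.03 (SD, n = 2) in GV and 0.59 ± 0.01 (SD, n = 2) in ICM, with all the other later control groups between these values. These SDs do not cover the choice of bins. With 1 H3K27me3 library left out of the rule, the lowest enrichment was 0.58 in GV, 0.26 in 2C, 0.20 in 4C and 0.05 in 8C. It was 0.08 in MO, 0.07 in BL, 0.015 in TE and -0.15 in ICM.

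H3K4me3 enrichment at the oocyte-only bins was higher in GV than in the later libraries by 0.33 on the log2 scale (exact two-sided permutation test over 120 choices of libraries, p = 0.00833, the smallest this design allows, adjusted p = 0.0125 over 3 marks). It also differed among the 8 control groups (permutation test, 100000 resamples, adjusted p = 0.00124). The GV difference depended on the measure. With the share of bins marked in place of length covered it turned to -0.26 (exact permutation test, adjusted p = 0.362), and with bins chosen without H3K27me3 GV replicate 2 it was 0.14 (exact permutation test, adjusted p = 0.2). Without H3K4me3 GV replicate 1 or 2 it was 0.35 or 0.30 (exact permutation test, adjusted p = 0.1 in both), where p cannot go below 0.0667.

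Wide H3K4me3 was rare. In GV, 289 oocyte-only bins (3.797%) were marked, against 2.6% of all autosomal bins, while 3435 (45.1%) were touched by a peak in both libraries, against 19.7%. The marked bins numbered 228 in 2C (3.00%, against 1.95%), 199 in 4C (2.61%, against 1.63%) and 159 in 8C (2.09%, against 1.36%). In MO, 161 bins (2.12%) were marked, against 0.872%, and in BL 192 (2.52%), against 1.1%. ICM had 123 (1.62%, against 0.804%) and TE 177 (2.33%, against 1.01%). In at least 1 later control group 384 bins (5.05%) were marked, against 3.34% of all bins and 21.6% of the other GV-marked bins. Of the 289 bins marked in GV, 72 (24.9%) were marked in MO, and those make up 44.7% of the MO bins. Over all autosomal bins, 6.66% of the bins marked in GV were marked in MO, and those make up 19.8% of the MO bins.

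The other GV-marked bins had much more H3K4me3 before the morula and less after. Their coverage was 34.4% ± 4.77 (SD, n = 2) in GV and 19.8% ± 7.13 in 8C, against 13.3% ± 2.39 and 5.79% ± 2.39 in the oocyte-only bins. In MO it was 2.77% ± 0.11 against 3.17% ± 0.2. The log2 ratio of oocyte-only to other GV-marked bins was -1.37 in GV, -1.76 in 2C, -1.80 in 4C and -1.79 in 8C, then 0.19 in MO, 0.50 in BL, 0.41 in ICM and 0.34 in TE. Both libraries of every group had the sign of their mean. This ratio differed among the 8 groups (permutation test, 100000 resamples, adjusted p = 8e-05), a test added after the values were seen.

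Averaged over the groups, the ratio was -0.66 and did not pass the test (exact sign-flip test over 8 group means, adjusted p = 0.199). Chosen without H3K27me3 GV replicate 1, it was -1.16 (exact sign-flip test, adjusted p = 0.0176). The GV score of the peaks moved with this result. Among the 5139 other GV-marked bins whose GV scores lay within the quartiles of the oocyte-only bins in both lists, H3K4me3 covered 19.9% in GV and 0.831% in MO. Against these, the ratio was -0.58 in GV and -0.20 in 8C, then 1.93 in MO, and its average over groups was 0.82 (exact sign-flip test, adjusted p = 0.161). The turn between 8C and MO thus appeared in both comparisons, while the early deficit was smaller in the second. Both sets of comparison bins were marked by later H3K27me3 by construction, so the turn was measured on bins sorted by that mark.

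**Figure D3:**
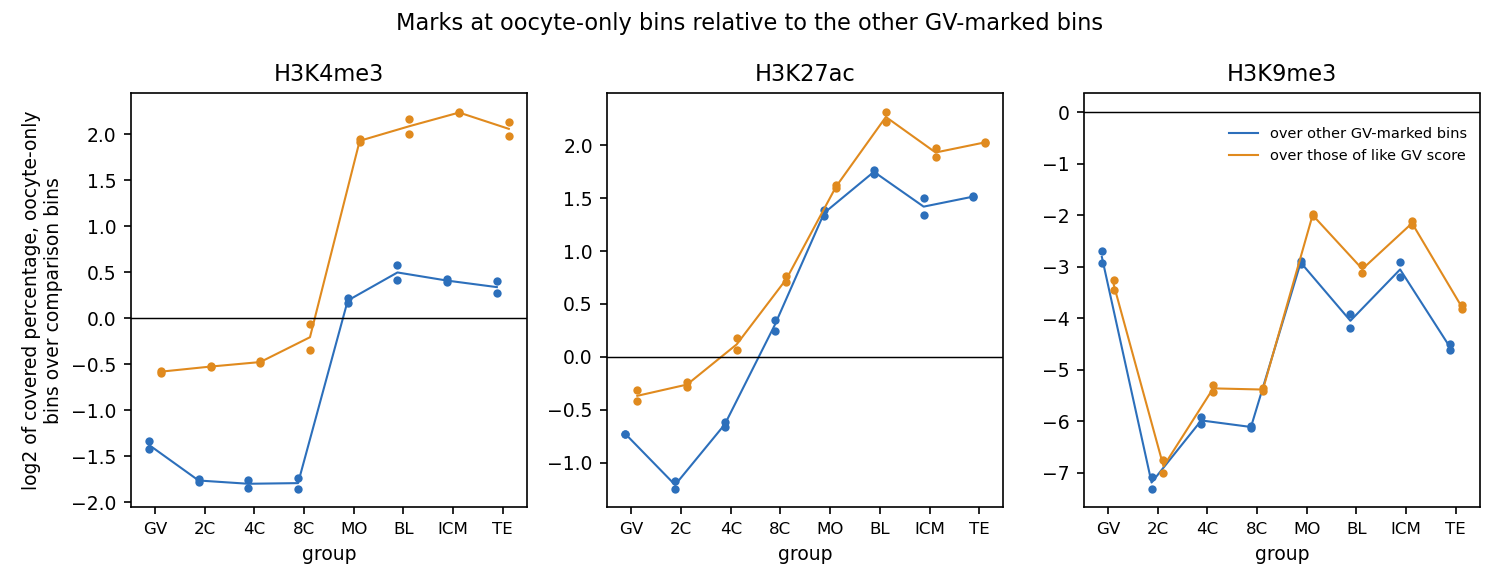
Log2 ratio of the covered percentage of the oocyte-only bins to that of comparison bins (y axis) by group (x axis), for all other GV-marked bins and for those with like GV peak scores. Points are libraries and lines join the means of the 2 libraries; the H3K4me3 and H3K27ac ratios go from below 0 in GV to above 0 in MO, and the H3K9me3 ratio stays below 0.

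H3K27ac went the opposite way from H3K4me3 between GV and the embryo. It covered 3.26% and 4.11% of the oocyte-only bins in GV, below the 5.09% and 5.70% of the autosomes. Coverage was 4.55% and 5.54% in 2C, 3.95% and 4.05% in 4C, and 6.56% and 6.55% in 8C, above the autosomal level in each library. It was highest in MO, at 8.80% and 8.94%, and then 4.19% and 4.6% in BL, 6.42% and 6.00% in ICM, and 4.49% and 4.47% in TE. The libraries of a group lay close together, and MO did not overlap with any other control group.

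H3K27ac enrichment at the oocyte-only bins was -0.56 ± 0.12 (SD, n = 2) in GV, which is 1.47-fold under the autosomal level. In every later control group it was positive, from 0.71 ± 0.01 in ICM to 1.19 ± 0.01 in 4C, the latter 2.28-fold over the autosomal level. These SDs do not cover the choice of bins. With bins chosen without H3K27me3 GV replicate 1, enrichment was 0.12 in ICM, 0.35 in TE, 0.48 in BL, 0.47 in MO and 0.78 in 4C. GV was lower than the later libraries by 1.52 on the log2 scale, a difference of -1.52 (exact two-sided permutation test over 120 choices, p = 0.00833, the smallest this design allows, adjusted p = 0.0125). With either GV library of H3K27ac left out the difference was -1.43 or -1.60 (exact permutation test, adjusted p = 0.1 in both). With 1 GV library, p cannot go below 0.0667. Enrichment differed among the 8 groups (permutation test, 100000 resamples, adjusted p = 2e-05, from the smallest p the resamples can give, 1e-05).

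Of the oocyte-only bins, 70 (0.920%) were marked by H3K27ac in GV, against 2.6% of all autosomal bins. Only 54 were marked in 2C (0.709%, against 0.315%) and 11 in 4C (0.145%, against 0.0858%), while peaks covered 5.05% and 4.00% of the length of the oocyte-only bins at these stages. In 8C, 230 were marked (3.02%, against 1.4%), and in MO 463 (6.08%, against 2.1%). BL had 214 (2.81%, against 0.935%), ICM 365 (4.80%, against 2.3%) and TE 235 (3.09%, against 1.19%). In total 807 oocyte-only bins (10.6%) were marked by H3K27ac in at least 1 later control group, against 4.79% of all autosomal bins and 7.33% of the other GV-marked bins.

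The H3K27ac bins changed from stage to stage. From 4C to 8C, 217 bins (2.85%, against 1.3% of all bins) were gained, meaning marked in both libraries of the second group and in neither of the first. This was a gain of wide peaks. H3K27ac peaks already touched 1540 oocyte-only bins (20.2%, against 8.74%) in both 4C libraries, and 1286 (16.9%, against 10.1%) in both 8C libraries. From 8C to MO, 352 were gained (4.62%, against 1.64%) and 138 lost (1.81%, against 0.958%). From MO to BL, 260 were lost (3.42%, against 1.3%). These percentages are of all bins, marked or not. Of the oocyte-only bins marked in 8C, 32.6% were also marked in MO, against 23.4% over all autosomal bins. Of those marked in MO, 34.8% were also marked in BL, against 30.6%. The MO bins shared 239 with ICM, which is 51.6% of the MO bins and 65.5% of the ICM bins, against 54.3% and 49.7% over all autosomal bins. Only 25 oocyte-only bins (0.328%, against 0.0995%) were marked in 8C, MO, BL, ICM and TE alike.

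Much of the H3K27ac in MO, ICM and TE lay apart from wide H3K4me3, as it did over all autosomal bins. In MO, 344 of the 463 bins with H3K27ac were without H3K4me3 (4.52% of the oocyte-only bins, against 1.68% of all bins), and 119 had both (1.56%, against 0.423%). In ICM 261 had H3K27ac alone (3.43%, against 1.7%) and 104 both (1.37%, against 0.599%). In TE 135 had H3K27ac alone (1.77%, against 0.766%) and 100 both (1.31%, against 0.423%). These percentages are of all bins, marked or not. Of the oocyte-only bins with H3K27ac, 25.7% also had wide H3K4me3 in MO, against 20.1% over all autosomal bins with H3K27ac. This share was 28.5% in ICM, against 26.04%, and 42.6% in TE, against 35.6%. It was also higher than over all bins in GV (51.4%, against 19.5%) and BL (43.9%, against 42.3%). It was lower in 2C (75.9%, against 79.2%), 4C (54.5%, against 71.4%) and 8C (24.3%, against 28.5%). Between the lineages, 183 bins had H3K27ac in both ICM libraries and in neither TE library (2.40%, against 1.34% of all bins). The reverse held for 73 bins (0.959%, against 0.342%).

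The other GV-marked bins followed another course. Their H3K27ac coverage was 11.7% ± 2.02 (SD, n = 2) in 2C and 3.45% ± 0.0556 in MO, and it was 1.31% ± 0.114 in BL. The log2 ratio of oocyte-only to other GV-marked bins was -0.73 in GV, -1.21 in 2C, -0.64 in 4C, 0.30 in 8C and 1.36 in MO. In BL, ICM and TE it was 1.75, 1.42 and 1.51, which are 3.36-fold, 2.68-fold and 2.86-fold more in the oocyte-only bins. The ratio differed among the groups (permutation test added after the values were seen, 100000 resamples, adjusted p = 3e-05). Against other GV-marked bins of like GV score it was -0.37 in GV, -0.26 in 2C, 0.12 in 4C, 0.74 in 8C and 1.61 in MO, so the early deficit was smaller and 4C had the opposite sign. The ratio to all other GV-marked bins averaged 0.47 over the groups and did not pass the test (exact sign-flip test, adjusted p = 0.334), since the early and late groups had opposite signs. H3K27ac and H3K27me3 exclude each other on one tail, and the other bins carry later H3K27me3 by construction. That the absence of later H3K27me3 accompanied more H3K27ac is therefore measured on bins that were sorted by later H3K27me3.

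A further set held 13223 GV-marked bins, unmarked in all 2C, 4C and 8C lists and marked in both BL lists, named regained bins here. Because the BL lists helped to choose them, the contrast in BL is between sets split by H3K27me3 at that stage. The regained bins also had a higher median GV score, 7.94 and 7.01 against 5.31 and 5.00 in the oocyte-only bins. The H3K27me3 coverage of the regained bins was 0.86% ± 0.132 in 2C and 0.735% ± 0.0432 in 8C (SD, n = 2), against 1.98% ± 0.133 and 0.197% ± 0.0491 in the oocyte-only bins, and it was 93.9% ± 0.198 in BL. Their H3K27ac coverage was 17.2% ± 2.7 in 2C, 9.51% ± 0.396 in 4C and 7.43% ± 0.354 in 8C, above the oocyte-only bins in each. In MO it was 2.08% ± 0.0412 and in BL 0.398% ± 0.0589, and the oocyte-only bins then had 4.27-fold and 11.1-fold more. Averaged over groups the log2 ratio of 0.85 did not pass the test (exact sign-flip test, adjusted p = 0.334). The same exact test on H3K4me3 gave -1.02 (adjusted p = 0.0879), and 0.36 (adjusted p = 0.615) with regained bins of like GV score. With bins chosen without H3K27me3 GV replicate 1 it gave -1.57 (exact sign-flip test, adjusted p = 0.0176).

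H3K9me3 covered less of the oocyte-only bins than of the autosomes in every control group, by much before MO and by less from MO on. It covered 1.18% and 1.04% in GV, 0.0794% and 0.0977% in 2C, 0.348% and 0.312% in 4C, and 0.308% and 0.294% in 8C. It then covered 2.73% and 3.60% in MO, 1.74% and 2.62% in BL, 2.84% and 4.27% in ICM, and 1.91% and 2.05% in TE. Every library from MO onward lay above every earlier control library. The autosomal level was 7.51% ± 0.0454 (SD, n = 2) in GV, 5.09% ± 0.00548 in 2C and 5.17% ± 0.836 in MO. The bins were thus 6.77-fold under that level in GV, 57.8-fold in 2C, 22.4-fold in 8C, 1.64-fold in MO and 1.28-fold in ICM. The ICM enrichment of -0.36 turned to 0.22 with lists trimmed to one covered length and to 0.09 without the chromosome ends.

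H3K9me3 enrichment differed among the 8 groups (permutation test, 100000 resamples, adjusted p = 2e-05). GV against all later libraries gave -0.11 (exact permutation test, adjusted p = 0.933), as GV lay between the cleavage stages and the later ones. In GV, 38 oocyte-only bins (0.499%) were marked by H3K9me3, against 6.06% of all bins. In 2C and 4C 1 bin each was marked (0.0131%, against 3.93% and 5.6%), and in 8C 9 (0.118%, against 5.64%). MO had 156 (2.05%, against 3.97%), BL 85 (1.12%, against 3.54%), ICM 155 (2.04%, against 3.21%) and TE 65 (0.854%, against 5.15%). Of the 38 bins marked in GV, 1 (2.63%) was also marked in MO and 0 in TE, where the shares for all bins marked in GV were 9.86% and 13.7%. In ICM but not TE, 103 bins (1.35%, against 0.845%) were marked, and in TE but not ICM 25 (0.328%, against 1.98%). H3K9me3 together with wide H3K4me3 or H3K27ac was rare in all bins. No oocyte-only bin had it in GV, 2C, 4C or TE, against 0.0187%, 0.162%, 0.318% and 0.00965% of all bins. In 8C 1 bin did (0.0131%, against 0.218%), in MO 14 (0.184%, against 0.0593%), in BL 2 (0.0263%, against 0.0277%) and in ICM 8 (0.105%, against 0.0255%).

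Among the comparisons of bin sets averaged over groups, those that passed the test were of H3K9me3. It covered 7.76% ± 0.182 (SD, n = 2) of the other GV-marked bins in GV, 20.9% ± 1.3 in 8C and 46.6% ± 0.0456 in TE. The log2 ratio of oocyte-only to other GV-marked bins was negative in each of the 8 control groups and -4.58 on average (exact sign-flip test over 8 group means, p = 0.00781, the smallest this design allows, adjusted p = 0.0352 over 9 comparisons). Among other GV-marked bins of like GV score, the ratio was still between -6.88 in 2C and -2.00 in MO. The kept bins were covered by H3K9me3 to 89.7% ± 0.568 in 4C and 91.5% ± 1.24 in TE, and the average ratio to them was -6.18 (exact sign-flip test, adjusted p = 0.0352). Against the regained bins the average was -2.15 (exact sign-flip test, adjusted p = 0.0879). There the oocyte-only bins had 4.30-fold more H3K9me3 in GV, and the regained bins had 17.3-fold more in BL and 26.7-fold more in TE. The share of bins marked by H3K9me3 in at least 1 later group was 4.10% for the oocyte-only bins (312 bins), 12.8% for all bins and 55.0% for the other GV-marked bins. The comparison sets carry later H3K27me3 by construction, and the oocyte-only bins do not. The H3K9me3 deficit is therefore measured on bins that were sorted by later H3K27me3.

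Open chromatin was measured in the blastocyst only. ATAC peaks covered 5.26%, 6.73% and 7.44% of the oocyte-only bins in the 3 BL libraries, 5.40%, 6.38% and 5.31% in ICM, and 5.34%, 6.21% and 5.32% in TE. Enrichment was 0.69 ± 0.02 (SD, n = 3) in BL, 0.71 ± 0.01 in ICM and 0.67 ± 0.01 in TE, which is about 1.6-fold over the autosomal level in each. With bins chosen without H3K27me3 GV replicate 1, enrichment was 0.16 in BL, 0.20 in ICM and 0.13 in TE. In BL 160 oocyte-only bins (2.10%) were marked, against 0.656% of all bins, in ICM 146 (1.92%, against 0.637%) and in TE 166 (2.18%, against 0.711%). The test of the 3 groups gave p = 0.0107 (exact permutation test over 1680 arrangements). It did not pass with ATAC ICM replicate 2 left out (p = 0.0607, exact) or with bins chosen without H3K27me3 ICM replicate 1 (p = 0.104, exact). With stricter lists, trimmed lists or the share of bins marked the exact p was 0.389, 0.246 and 0.75. Of the ICM bins with open chromatin, 125 of 146 (85.6%) also had H3K27ac, against 74.1% over all autosomal bins. The share was lower in BL, with 90 of 160 (56.25%, against 45.8%), and in TE, with 102 of 166 (61.4%, against 54.7%). The ATAC coverage of the other GV-marked bins was 7.03% ± 1.64 in BL, 5.29% ± 0.56 in ICM and 5.27% ± 0.628 in TE.

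Around the runs, H3K27me3 and H3K4me3 were highest in the runs in GV, while H3K27ac and H3K9me3 were lower there than outside. In GV, H3K27me3 covered 85.5% of the runs, 41.6% of the adjoining 5 kb and 26.3% at 50 kb upstream by the numbering. H3K4me3 in GV was 13.3% in the runs, 9.98% in the 5 kb upstream and 8.52% at 50 kb upstream, and in MO it was 3.17%, 1.86% and 1.77%. H3K27ac in MO was 8.87% in the runs, 5.77% in the 5 kb upstream and 4.80% at 50 kb upstream. In GV it was 3.69% in the runs and 4.69% at 50 kb upstream, so the runs were a shallow dip in the oocyte and a peak in the morula. H3K9me3 in GV was 1.11% in the runs and 4.07% at 50 kb upstream, and remained below the autosomal level over the whole window.

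**Figure D4:**
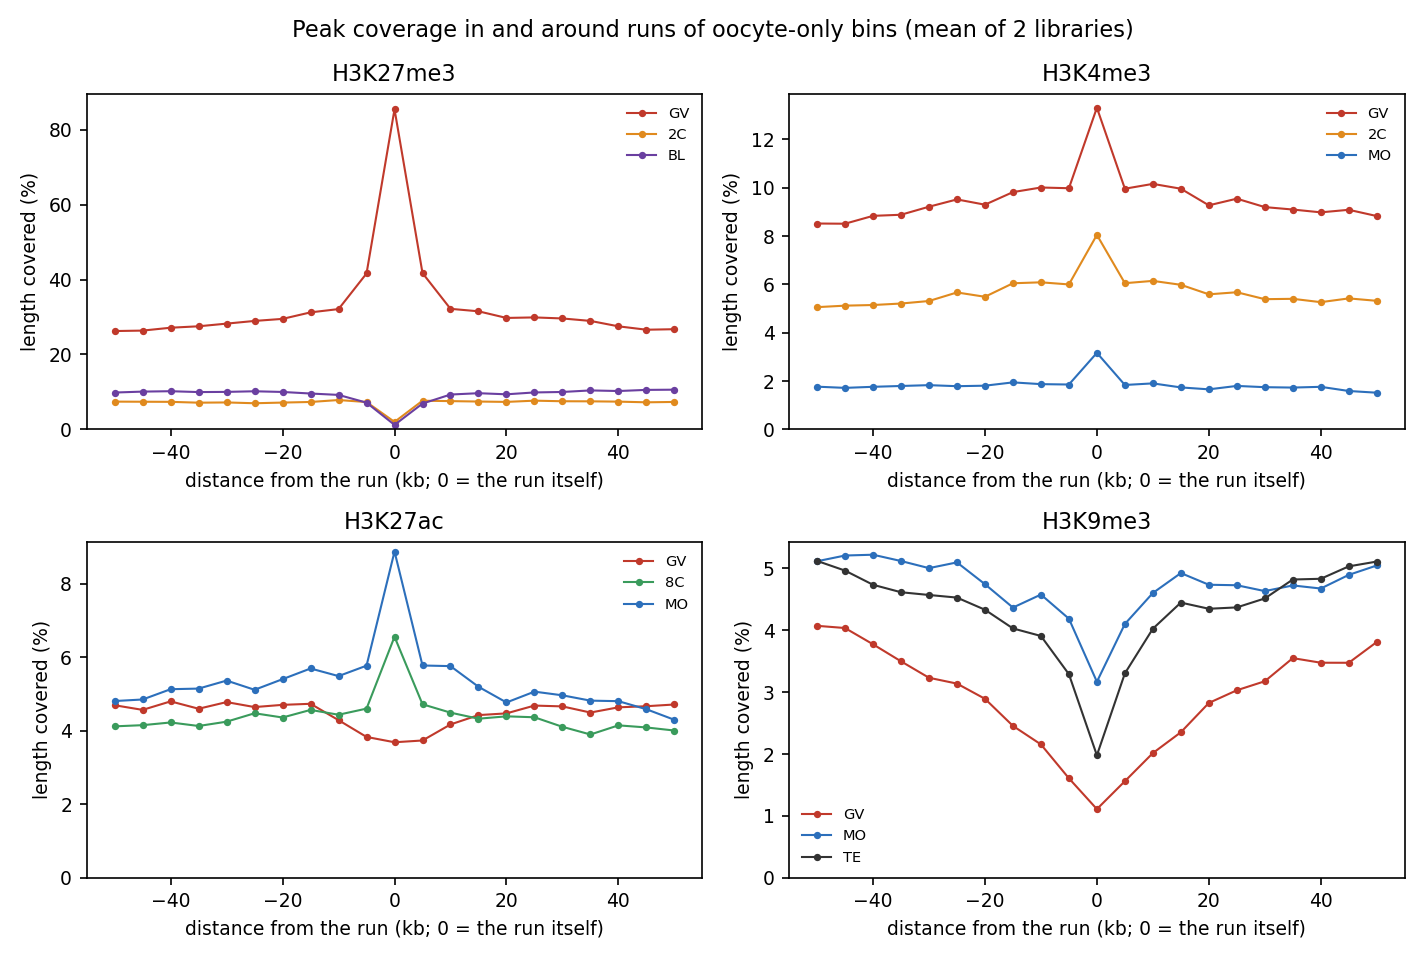
Share of length covered by peaks (y axis, %, mean of 2 libraries) at 5 kb steps from the edges of the 5110 runs of oocyte-only bins (x axis, kb, negative values toward lower positions, with 0 for the run itself). H3K27ac is lowest at the runs in GV, at 3.69%, and highest there in MO, at 8.87%, and H3K9me3 is lowest at the runs in the 3 groups shown.

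The bins varied among themselves. Longer runs had more H3K27ac in MO, with coverage of 7.38% in single-bin runs, 8.66% in runs of 2 or 3 bins and 15.2% in runs of 4 bins or more. This order did not hold in 8C, where these classes had 6.91%, 6.10% and 6.77%. In GV these classes had 3.82%, 3.58% and 3.52%. H3K4me3 in GV covered 13.1%, 12.3% and 17.7%. The 289 bins with wide H3K4me3 in GV stood apart further, with H3K27ac coverage of 43.0% in MO and 41.3% in ICM, against 6.35% and 3.83% in the 7007 bins with wide H3K4me3 in neither GV library. ATAC in BL covered 43.0% of the former and 4.13% of the latter. Bins in stretches that also held other GV-marked bins had more H3K9me3 in TE, 3.61% against 1.08% in stretches of oocyte-only bins alone. These splits are descriptions, without a test, because neighbouring bins are not independent.

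The 10 longest runs are given by their position in the ARS-UCD1.2 build, counted from 1. Runs 1 to 4 spanned 50 kb each, at chr13:15565001-15615000, chr13:59370001-59420000, chr23:20060001-20110000 and chr27:35110001-35160000. Runs 5 to 8 spanned 45 kb, at chr6:45270001-45315000, chr21:27615001-27660000, chr23:20135001-20180000 and chr25:24215001-24260000. Runs 9 and 10 spanned 40 kb, at chr5:96645001-96685000 and chr21:12370001-12410000. They are the first 10 of the 12 runs of 8 bins or more, in the order of length, chromosome and start. No later H3K27me3 peak of a control group touched run 2 or run 4, the longest of the runs without such a peak.

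The longest runs took different courses after GV. Run 2 kept H3K4me3 throughout, from 29.7% and 38.9% in GV to 30.4% and 26.3% in TE. Its H3K27ac was 6.6% and 6.0% in GV, 30.0% and 27.2% in 8C, and 42.1% and 43.7% in MO. TE had 46.7% and 48.5% and ICM 28.3% in both libraries, so this run was acetylated more in the trophectoderm. Run 1 had the opposite order, with H3K27ac of 1.2% in both GV libraries, 43.4% and 38.3% in ICM, and 15.7% and 14% in TE.

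Run 6 carried H3K27ac in separate waves. Its H3K27ac was 33.6% and 48.3% in 2C, 0% in both 8C libraries and 60.1% and 60.4% in MO. ICM then had 33.3% and 38.6%, against 5.44% and 5.00% in TE. Its H3K4me3 was 44.6% and 53.0% in GV and 0.667% and 6.44% in 8C. Run 5 ended without any of the 3 other marks. It had H3K4me3 of 11% and 21.2% in GV and was listed at 0 for H3K4me3, H3K27ac and H3K9me3 in every library from MO onward. Runs 3, 4, 7, 8, 9 and 10 likewise had H3K4me3 in both GV libraries and were listed at 0 for it from MO onward. Of these, run 4 had H3K27ac of 16.1% and 24.6% in MO and 0 in BL, ICM and TE. H3K9me3 was at 0 in all 10 runs in GV, 2C, 4C, 8C and 8A, and reached its highest level in run 10, with 13.0% and 33.5% in ICM.

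**Figure D5:**
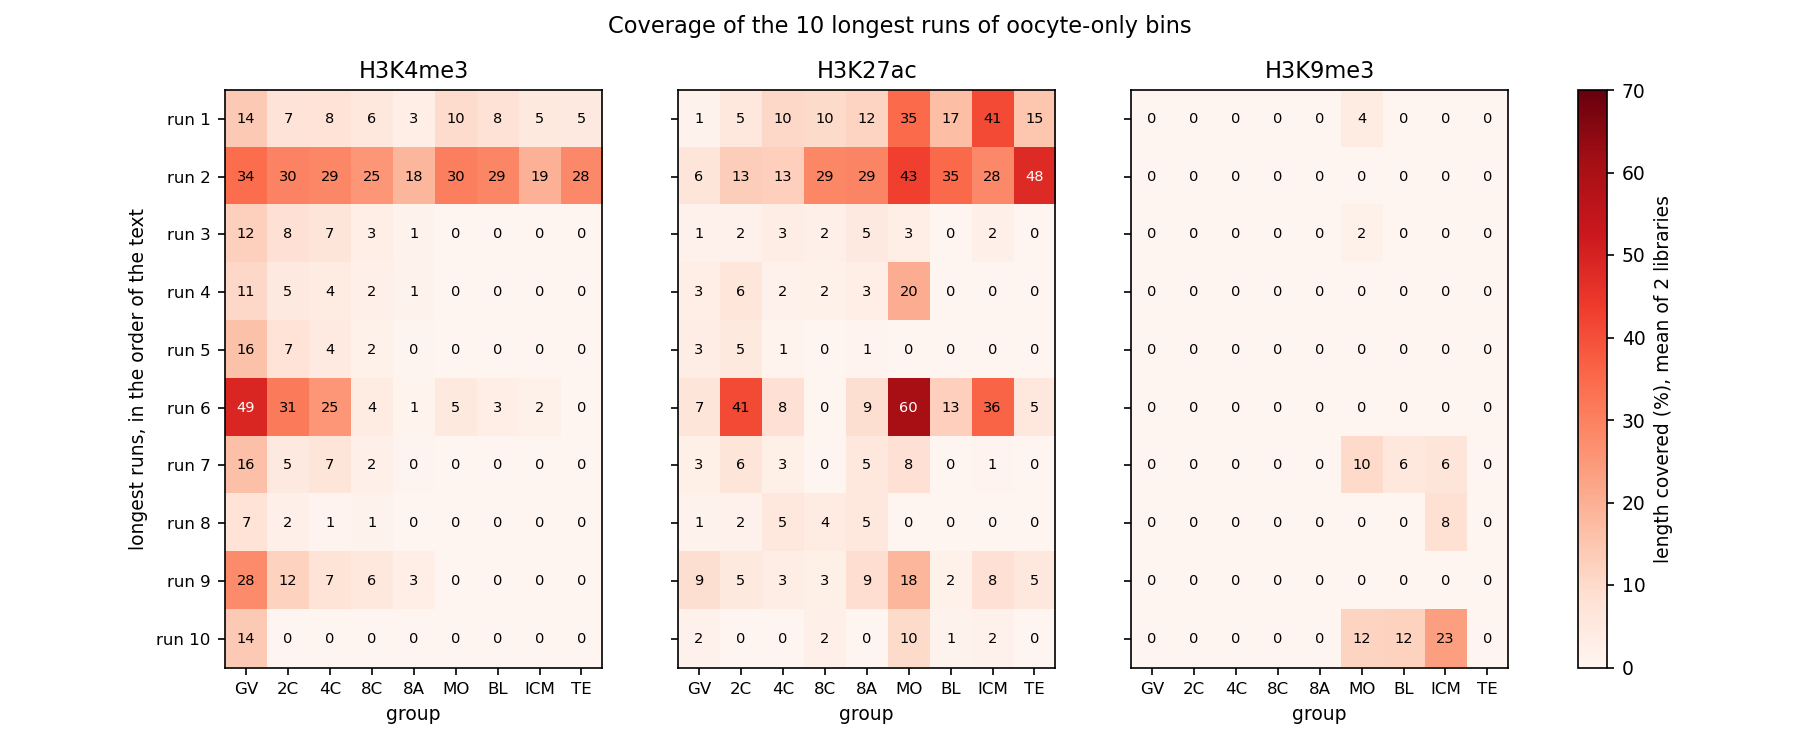
Mean share of length covered by peaks (%, 2 libraries) in each of the 10 longest runs of oocyte-only bins (rows, in the order given in the text) and each group (columns) for H3K4me3, H3K27ac and H3K9me3. Run 6 is covered by H3K27ac in 2C and MO and not in 8C, run 2 keeps both active marks, and 7 of the runs have H3K4me3 in GV and none from MO onward.

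Regions were also chosen for a mark, as the first by chromosome and start among the longest stretches that carried it. Of 2 such stretches of oocyte-only bins marked by H3K4me3 in GV, that at chr3:16815001-16830000 is given, where H3K4me3 covered 77.7% and 80.3% in GV. Its H3K27ac was 20.7% and 23.3% in GV, 0.667% and 0% in 8C, and 98.0% and 97.3% in MO. The first of 4 stretches of 10 kb with H3K27ac in GV, chr18:55160001-55170000, had 90.5% and 87.0% covered by H3K27ac there although H3K27me3 covered 100% in both GV lists. Its H3K4me3 was 58.0% and 56.5% in GV and 92.5% and 97.5% in 8C. The first of 4 stretches of 10 kb with H3K9me3 in GV was chr2:3265001-3275000, with 80% and 82% covered, and it was listed at 0 for H3K9me3 in every later library. The first of 5 stretches of 15 kb with H3K9me3 from MO on was chr8:97385001-97400000, where H3K9me3 was 0 up to 8C, 30.7% and 57.3% in MO, and 100% and 92.0% in ICM. Each stretch shows its own mark by choice, and only the other marks and groups add to the description.

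The α-amanitin group asked how the 8-cell state depended on transcription. With 2 libraries against 2 an exact test cannot go below p = 0.33, so values are given. H3K27me3 in 8A took no part in the rule. It covered 1.02% and 1.27% of the oocyte-only bins, but the 8C lists helped to choose them. For 7653 bins chosen without the 8C lists, 84 (1.10%) and 107 (1.40%) were marked by H3K27me3 in the 8A libraries, and 28 (0.366%) and 26 (0.340%) in the 8C libraries. The shares of all bins were 6.02% and 6.34% in 8A and 5.67% and 5.78% in 8C. Almost all of these bins were thus without H3K27me3 in the inhibited embryos too, and the few that had it were more numerous than in 8C.

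Among the other marks, H3K9me3 differed most. It covered 1.46% and 1.28% of the oocyte-only bins in 8A, against 0.308% and 0.294% in 8C, an enrichment difference of 2.08. These bins were 22.4-fold under the autosomal level in 8C and still 5.29-fold under it in 8A. A higher mean coverage in 8A was not particular to them. H3K9me3 covered 5.69% of the regained bins in 8A and 1.39% in 8C, with enrichment of -0.35 and -2.29. It covered 26.99% and 20.85% of the other GV-marked bins, and 7.24% and 6.74% of all autosomal bins. In 8A 63 oocyte-only bins (0.828%, against 6.13% of all bins) were marked, and 45 (0.591%, against 0.677%) were marked in both 8A libraries and neither 8C library. In the 289 bins with wide H3K4me3 in GV, H3K9me3 covered 12.2% in 8A, 2.71% in 8C and 1.29% in MO. H3K4me3 covered 3.49% and 2.98% in 8A, with 82 bins marked (1.08%, against 0.726%), below both 8C libraries, yet its enrichment differed by only -0.13. H3K27ac covered 8.25% and 8.03% in 8A, above both 8C libraries, with 191 bins marked (2.51%, against 1.12%), and its enrichment differed by 0.17. For H3K27ac, 139 oocyte-only bins were marked in 8C and in neither 8A library (1.83%, against 0.87% of all bins), and 97 the other way (1.27%, against 0.62%). Other GV-marked bins had H3K27ac of 13.9% ± 0.0202 (SD, n = 2) in 8A, against 5.34% ± 0.271 in 8C, so that the log2 ratio of oocyte-only to other GV-marked bins was -0.77 in 8A and 0.30 in 8C.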

How the data were processed

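One peak list per library was deposited, with chromosome, start, end, peak name and a whole number that is treated as a score. The authors do not name this score, and its meaning was not established, so it was used only within a list. There it served to rank or filter peaks, to describe the GV peaks per 200 bp and to choose bins of like GV score. Per the submitters' processing notes, reads were handled with SICER and SAMtools 1.9, BWA 0.7.9a and Trim Galore 0.4.0, besides Picard 2.26.10 and cutadapt 1.8.3, on ARS-UCD1.2, while the lists are named for epic2. The sources used here give no peak threshold, control or read filter. Peak edges lie on a grid of 50 bp (H3K4me3, H3K27ac, ATAC) or 200 bp (H3K27me3, H3K9me3). Depth per library is unknown, so no counting interval is given.

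Covered bases per 5 kb bin came from NumPy 2.4.6 under Python 3.11.15, and figures from Matplotlib 3.10.9. Scripts were tested on simulated data. Enrichment was log2 of the covered percentage of the bins over that of all autosomal bins. GV was compared with the 14 later libraries by an exact permutation test of the mean difference, which treats those libraries as exchangeable. The 8 control groups were compared by permuting libraries (between-group sum of squares). Bin sets were compared by flipping the signs of the 8 group means of the log2 ratio. P-values were adjusted by Benjamini-Hochberg over 3 marks, over 4 assays, over 9 comparisons of bin sets and over the 3 added tests.

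Bins, comparison sets and lists were chosen with earlier results of these data known. The named regions are the 10 longest runs and the longest runs marked by H3K4me3, H3K27ac or H3K9me3 in GV, by H3K9me3 in MO or later, or without a later H3K27me3 base, the first by chromosome and start where runs tied. Nothing in the labels pairs replicate numbers, and same-numbered libraries did not deviate together in every pair of groups, ATAC included, so no pairing was used. Alternatives were bin size (2 and 10 kb), bin start, coverage threshold (25% and 75%), stricter or trimmed lists, share of bins marked, each library left out, and, added after seeing the data, chromosome ends removed and comparison bins of like GV score. Genes and sequences were not analysed here, because the reference at hand was of another build.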

Additional observations from a re-analysis of the deposited data

Results flagged for a closer look

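These ratios turned sign between groups in both libraries of each group; the turn between those 2 groups was itself not tested. The H3K4me3 log2 ratio of oocyte-only to other GV-marked bins was higher in MO than in 8C by 1.98, and against kept bins by 3.98. Against regained bins it was higher in BL than in MO by 0.57, but it was -0.03 in ICM and -0.02 in TE. The H3K27ac ratio to other GV-marked bins was higher in 8C than in 4C by 0.93, and the difference of 8A from 8C was -1.07. Against bins of like GV score both 4C (0.12) and 8C (0.74) were positive, without the turn. Against regained bins H3K27ac was higher in MO than in 8C by 2.27. Against kept bins it was higher in 4C than in 2C by 0.78, and 8A differed from 8C by -1.31. The H3K9me3 ratio to regained bins differed between 2C and GV by -2.98, where coverage of the regained bins was 0.258% in GV and 0.162% in 2C.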

How the results depend on the processing

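Under every alternative run, the differences of H3K4me3, H3K27ac and H3K9me3 enrichment among groups stayed past the threshold. So did the differences among groups of the ratios to other GV-marked bins. These tests among groups have no direction, so they do not say whether the order of the groups stayed the same. The H3K9me3 deficit against other GV-marked and kept bins also stayed past the threshold, in the same direction. The comparison sets were chosen by later H3K27me3 under each alternative. Where a result below changed, the cause was not tested. The rule gave 18489 bins at 2 kb, 3862 at 10 kb, 2743 with lists trimmed to one covered length and 7625 to 13786 with a library left out. Of the 15 named regions, counting run 2 under both choices that named it, 3 met the rule over their whole length at 75% coverage and 2 with 2 kb bins. H3K4me3 enrichment in GV against later was -0.26 with the share of bins marked and 0.14 to 0.50 with a library left out, not past the threshold without H3K27me3 GV replicate 2 or either H3K4me3 GV library. For H3K27ac this range was -1.60 to -1.16. The H3K9me3 difference, never past the threshold, was 0.10 at 25% coverage, 0.0512 at 2 kb, 0.34 with 8A lists excluding bins, 0.14 with no later H3K27me3 base, 0.25 with the share of bins marked, and -0.37 to 0.41 with a library left out. The ATAC difference had p = 0.0929 with no later H3K27me3 base, 0.389 with stricter lists, 0.246 with trimmed lists, 0.75 with the share of bins marked and 0.00357 to 0.104 with a library left out (exact or permutation tests).

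The H3K4me3 ratio to other GV-marked bins was 0.82 with comparison bins of like GV score and -1.16 to -0.64 with a library left out. To regained bins it was 0.36 with bins of like score, -1.13 at 25% coverage (past the threshold), -1.14 without the first and last 5 Mb (past it) and -1.57 to -0.95 with a library left out, and to kept bins 0.0764 with stricter lists and 0.14 with trimmed ones. The H3K9me3 ratio to regained bins passed the threshold with no later H3K27me3 base (-3.19) and with trimmed lists (-2.36). H3K9me3 enrichment in ICM turned from -0.36 to 0.22 with trimmed lists and to 0.09 without the chromosome ends. H3K4me3 enrichment turned negative in 8A (-0.12) and ICM (-0.15) with bins chosen without H3K27me3 GV replicate 1.

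The enrichment difference of 8A from 8C was, in the order 25% coverage, 75% coverage, 10 kb bins, 8A lists excluding bins, no later H3K27me3 base, trimmed lists and share of bins marked, 1.85, 0.91, 0.87, -0.29, 2.43, 1.72 and 1.70 for H3K27me3. The negative value follows from leaving out bins marked in 8A. In that order it was 0.13, 0.23, 0.16, 0.15, 0.15, 0.78 and 0.11 for H3K27ac, and 2.64, 1.47, 1.96, 2.32, 3.17, 2.25 and 2.51 for H3K9me3. With 2 kb bins, shifted bins, stricter lists and no chromosome ends it was 0.16, 0.16, 0.41 and 0.30 for H3K27ac, and 2.44, 2.255, 2.30 and 2.37 for H3K9me3. For H3K4me3 it was -0.031 with stricter lists, 0.16 with trimmed lists and -0.0555 with the share of bins marked. With a library left out it was 0.98 to 1.43 for H3K27me3, -0.21 to -0.06 for H3K4me3, 0.0157 to 0.18 for H3K27ac and 1.74 to 2.17 for H3K9me3.

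Replicate numbers were not taken to pair the libraries. Deviations of same-numbered libraries had correlations of -0.09 to 0.18 for H3K4me3, -0.04 to 0.04 for H3K27ac and -0.09 to 0.06 for H3K9me3. For ATAC they were -0.17 to 0.18, over 0.1 in 5 of 9 pairs, and -0.32 to 0.26 between libraries of different numbers. With the replicate number as a block, the GV difference had an adjusted p of 0.0234 for H3K4me3 (0.33) and H3K27ac (-1.52), by exact permutation, and the ATAC difference had p = 0.0541. The block changed no other call.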

Other observations

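The X chromosome was outside the rule and was binned in the same way. It held 213 bins marked by H3K27me3 in both GV lists and in no later control list, which are 0.766% of its 27802 bins and 13.7% of its 1550 GV-marked bins, against 20.2% on the autosomes. H3K27ac covered 1.06% and 1.46% of these X bins in GV, 4.40% and 3.34% in 8C and 4.82% and 5.04% in MO. The level over all X bins was 2.24%, 1.07% and 1.99% in these groups, so the X bins lay below it in GV and above it in 8C and MO. H3K9me3 was listed at 0 in all 2C and 8C libraries and covered 9.37% and 11.6% in MO, above the 7.498% of all X bins. On the autosomes the oocyte-only bins stayed below the autosomal level in MO.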
